A study of Homo sapiens with 8 samples.

Results

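The genes described here are 30 genes of cholesterol synthesis, sterol transport and their control by the transcription factor SREBP2, out of 49733 gene IDs in the deposited tables. They were taken by name from a list of pathway members, drawn up with earlier results of these data known, and each of the 30 symbols matched 1 Ensembl gene ID. Their messenger RNA was measured by sequencing of poly-A RNA from HepG2, an established human hepatocellular carcinoma cell line grown in medium with foetal bovine serum. Cells that had reached 80% confluence received fresh medium with 2 µM benzo[a]pyrene (BaP), a polycyclic aromatic hydrocarbon formed in combustion, or with the vehicle, 0.5% DMSO. Both arms were harvested at 12 h and at 24 h, and each of the 4 groups holds 2 libraries from independent experiments, 8 libraries in all. HepG2 is a single tumour-derived line, and no other liver cell type was cultured with it.

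Cells make cholesterol from acetyl-CoA. The mevalonate pathway yields farnesyl diphosphate, squalene enzymes join and cyclise it to lanosterol, and a last series of enzymes in the endoplasmic reticulum trims lanosterol to cholesterol. SREBP2, encoded by SREBF2, is held in the endoplasmic reticulum by its escort SCAP and the sterol-sensing INSIG proteins while membrane cholesterol is high. When cholesterol falls, SCAP carries SREBP2 to the Golgi, proteases free its active part, and it switches on the genes of synthesis and uptake. Hepatocytes are a main site of this synthesis, and they also export sterol through ABCA1 to lipoprotein particles.

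The libraries held between 2592272 estimated counts (BaP 24 h, replicate 1) and 16533490 (BaP 24 h, replicate 2), and the next shallowest held 5590972 (vehicle 24 h, replicate 2). The exposure could be checked in the data: CYP1A1, an aryl hydrocarbon receptor target, was at 966 and 1060 CPM (counts per 1000000, scaled by library) after 12 h of BaP against 6.57 and 3.49 with vehicle. At 24 h it was at 376 and 306 CPM against 1.61 and 1.5 CPM. CDKN1A, a p53 target, was 4.05-fold higher with BaP at 12 h and 3.66-fold higher at 24 h. All 8 hepatocyte markers were detected in every library, with a summed level of 12820 to 20510 TPM (transcripts per 1000000), and 0 of the 8 passed edgeR's test for BaP at either time (at an unadjusted p under 0.05, 0 at 12 h and 3 at 24 h). Of 5 leukocyte markers, CD14 rose at 12 h and CD14 and CD68 rose at 24 h. The leukocyte sum was 478.6 to 484.4 TPM with BaP and 446 to 523.9 with vehicle at 12 h, and 621.2 to 762.8 with BaP and 718.6 to 782.6 with vehicle at 24 h, while CD3E was at 0 in every library and PTPRC at no more than 0.19 CPM. Of 6 fibroblast and stellate cell markers, PDGFRB fell at 12 h and none passed at 24 h. Their sum was 7.30 to 8.16 TPM with BaP and 11.4 to 20.6 with vehicle at 12 h, and 4.84 to 9.42 against 9.63 to 16.8 at 24 h, with DCN and LUM at 0. The 3 matched endothelial markers summed to 0.14 to 0.21 TPM with BaP and 0.19 to 0.38 with vehicle at 12 h, and to 0.12 to 0.27 against 0.61 to 0.80 at 24 h, with KDR at 0 in every library. The part of these markers in the results on cholesterol genes was not tested.

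The members differed widely in level on the TPM scale, which corrects for transcript length. In the 4 vehicle libraries the squalene synthase FDFT1 (187 to 242 TPM) and the farnesyl diphosphate synthase FDPS (172 to 233 TPM) were the highest, and their ranges overlapped. DHCR7, which makes cholesterol in its last step, followed at 81.4 to 106 TPM. SREBF2 lay at 46.1 to 48.5 TPM and its escort SCAP at 45.4 to 65.6 TPM. The early synthase HMGCS1 (21.2 to 25.3 TPM), the isomerase IDI1 (22.9 to 26.5 TPM) and the oxygenase MSMO1 (22.9 to 30.0 TPM) overlapped in level. The sterol desaturase SC5D was the lowest of the synthesis enzymes, at 3.52 to 4.93 TPM. INSIG1 was listed at 0 to 2 estimated counts in every library and the efflux transporter ABCG1 at 0 to 4, so neither was tested. The ribosomal protein gene RPL41 was listed at 0 in all 8 libraries of the same tables, so a listing at or near 0 cannot be read as a gene that is off. The other 28 members passed the low-count filter. The lowest count among the 28 was 10, for PMVK.

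**Figure D1:**
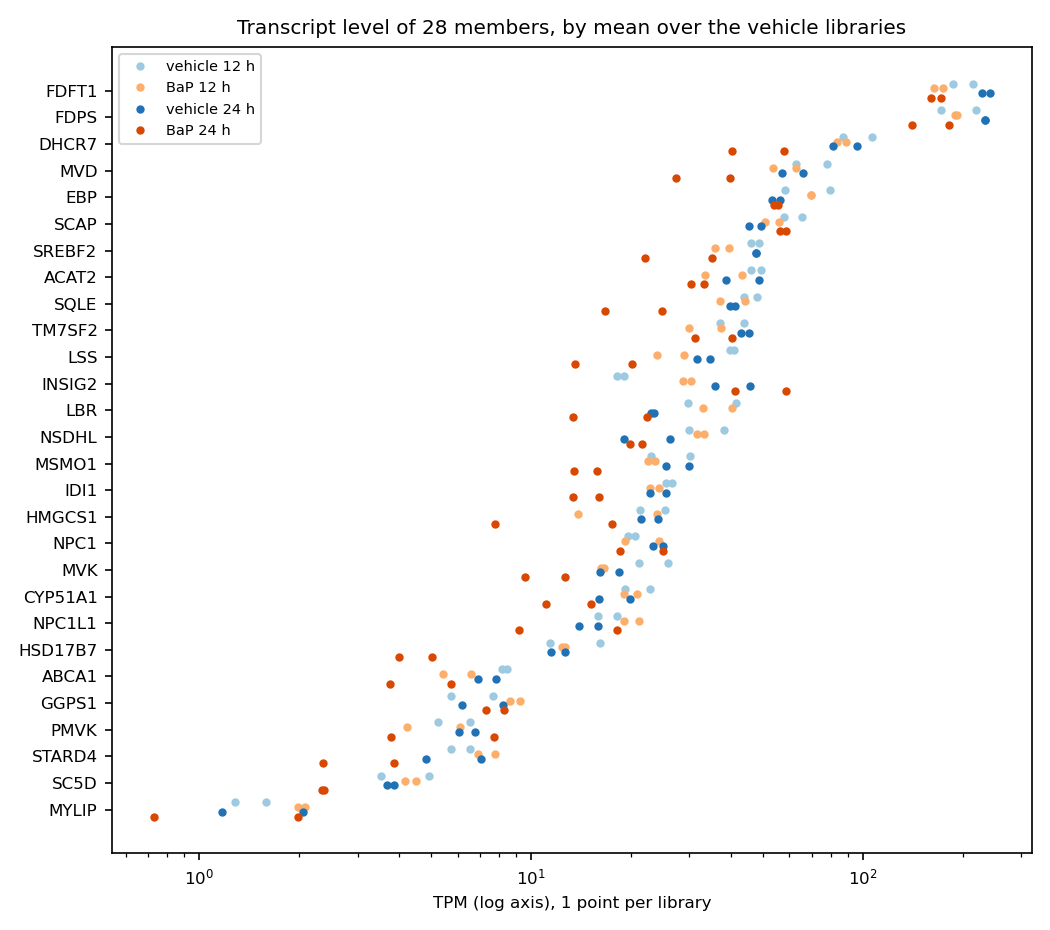
TPM (log axis) of the 28 tested members, 1 point per library, coloured by group and ordered by the mean over the 4 vehicle libraries. FDFT1 and FDPS lie highest, and for DHCR7, MVD, SQLE and LSS both BaP 24 h points lie left of the other 6 libraries.

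After 24 h of BaP the cholesterol genes were lower as a group. Of the 28 tested, 14 fell and 0 rose at an adjusted p under 0.05 (edgeR quasi-likelihood test, Benjamini-Hochberg over 14746 genes), where 2.20% of all genes fell and 3.11% rose. The median log2 fold change was -0.52, against 0.01 over all genes tested. At an unadjusted p under 0.05 there were 18 members, all 18 lower. In 21 members both BaP libraries lay below both vehicle libraries, as in 24.2% of all genes, and in 1 member, SCAP, both lay above, as in 23.1% of all genes. In a bulk culture, fewer cells expressing a gene and less RNA per cell cannot be told apart.

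At 12 h fewer members passed and the median lay nearer 0. LSS, MVK and ABCA1 fell and 0 members rose, where 4.84% of all genes fell and 3.41% rose. The median was -0.16, against 0.01 over all genes, and 9 members had an unadjusted p under 0.05, all 9 lower. Both BaP libraries lay below both vehicle libraries in 14 members (24.0% of all genes) and above in 3 (25.4% of all genes). All 3 members lower at 12 h were among the 14 lower at 24 h, and both times have their own vehicle libraries. Of 18 alternatives, MVK lost its 12 h call in 5, ABCA1 in 4 and LSS in 3. For MVK these included leaving out either BaP 12 h library, and for ABCA1 leaving out vehicle 12 h replicate 2. Without BaP 12 h replicate 1 no member kept its call at 12 h, and the members' median was -0.151. Leaving out BaP 24 h replicate 1 or 2 gave a 12 h median of -0.167 or -0.155 and added calls. Those libraries enter the 12 h test through the shared spread, the count filter, the scaling and the set of genes tested.

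**Figure D2:**
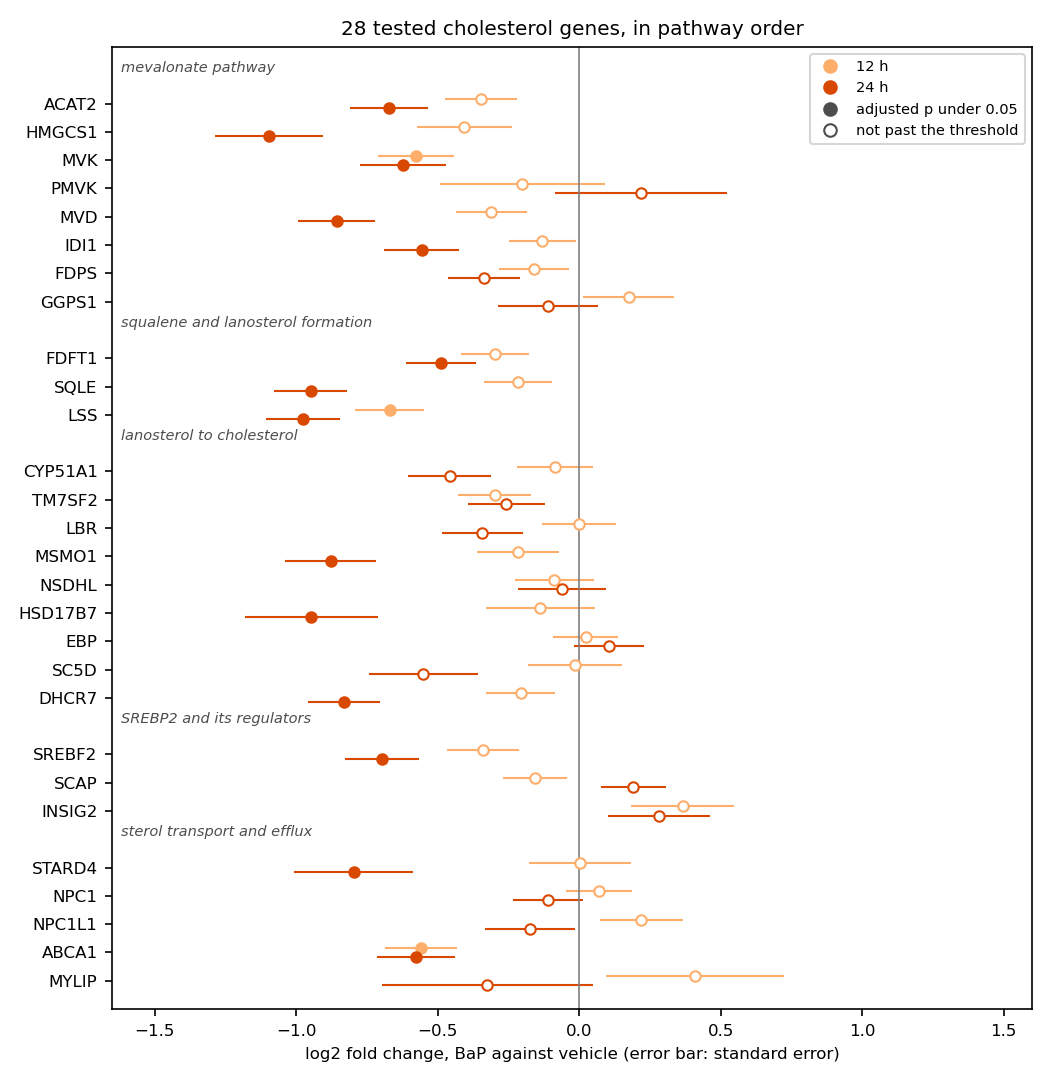
Log2 fold change of BaP against vehicle for the 28 tested members at 12 h and 24 h, with standard errors, in pathway order. Filled points passed an adjusted p of 0.05: 3 at 12 h and 14 at 24 h, all left of 0.

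The 20 synthesis enzymes were also summed per library. At 24 h the sum was 1032 and 1066 CPM with BaP and 1587 and 1531 CPM with vehicle, so the BaP mean was 32.7% lower. At 12 h the sum was 1301 and 1362 CPM with BaP and 1611 and 1546 CPM with vehicle, 15.6% lower. The pair of BaP libraries lay below the pair of vehicle libraries at both times, and the vehicle sums at 12 h and 24 h overlapped. On the TPM scale the sums were 713 and 677 with BaP against 1061 and 978 with vehicle at 24 h, and 892 and 938 against 1090 and 965 at 12 h. Of the 20 enzymes, 2 fell at 12 h, where 4.84% of all genes fell, and 11 fell at 24 h, where 2.20% of all genes fell. FDFT1, DHCR7 and FDPS make the largest contributions to the CPM sums.

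**Figure D3:**
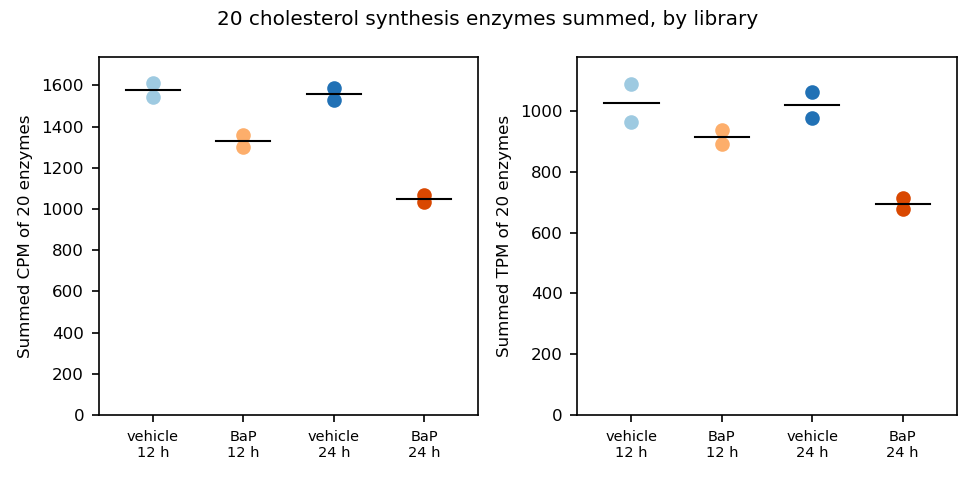
Summed level of the 20 synthesis enzymes in each library, as CPM (left) and TPM (right), with a line at the mean of each group of 2. The BaP 24 h libraries (1032 and 1066 CPM) are the lowest of the 8 on both scales.

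In the mevalonate pathway 5 of 8 genes fell at 24 h. The steepest was HMGCS1, the synthase that forms HMG-CoA (ENSG00000112972). It was at 25.9 and 20.3 CPM with BaP and 47.8 and 46.5 CPM with vehicle at 24 h, and at 29.3 and 42.5 against 43.1 and 52.8 CPM at 12 h. The groups did not overlap at 24 h, where HMGCS1 fell by 53.2% (log2 -1.10, SE 0.19, adjusted p = 0.0038, edgeR), and at 12 h the log2 difference was -0.41 (adjusted p = 0.18). MVD, the decarboxylase that yields isopentenyl diphosphate, was at 58.2 and 51.1 CPM with BaP against 101 and 93.2 CPM with vehicle at 24 h. Both BaP libraries were far below both vehicle libraries, and MVD fell by 44.8% (log2 -0.86, SE 0.14, adjusted p = 0.0013, edgeR).

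ACAT2, which joins acetyl-CoA units at the entry of the pathway, was at 44.9 and 56.4 CPM with BaP and 86.2 and 79.0 CPM with vehicle at 24 h. It fell by 37.2% (adjusted p = 0.0086, edgeR) without overlap. MVK, the mevalonate kinase, was lower at both times. It was at 25.7 and 24.9 CPM against 40.8 and 34.6 CPM at 12 h, and at 19.1 and 18.8 against 29.7 and 28.3 CPM at 24 h. The log2 differences were -0.58 (adjusted p = 0.012) and -0.62 (adjusted p = 0.025, edgeR) and in each pair the groups did not overlap. IDI1, the isopentenyl diphosphate isomerase, fell by 32.0% at 24 h (29.3 and 31.0 against 45.3 and 44.1 CPM, adjusted p = 0.021, edgeR) and differed by log2 -0.13 at 12 h.

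The other mevalonate genes did not pass. FDPS was at 123 and 152 CPM with BaP against 172 and 179 CPM with vehicle at 24 h, a log2 difference of -0.34 (SE 0.13, adjusted p = 0.15). GGPS1, which makes the geranylgeranyl chain for protein prenylation rather than for sterol, differed by log2 -0.11 at 24 h and 0.17 at 12 h. PMVK, the phosphomevalonate kinase, was too low to be measured closely: its BaP 24 h libraries were at 3.75 and 9.83 CPM and lay on either side of the vehicle libraries at 7.05 and 6.75 CPM.

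All 3 genes that turn farnesyl diphosphate into lanosterol fell at 24 h. SQLE, the squalene epoxidase (ENSG00000104549), was at 61.2 and 52.5 CPM with BaP and 106 and 110 CPM with vehicle. It fell by 48.2% (log2 -0.95, SE 0.13, adjusted p = 0.00043, edgeR), while at 12 h it was at 93.6 and 109 against 111 and 125 CPM, a log2 difference of -0.22 (adjusted p = 0.35). LSS, the lanosterol synthase that closes the sterol rings (ENSG00000160285), was lower at both times. It was at 77.0 and 82.9 CPM with BaP against 127 and 127 CPM with vehicle at 12 h, and at 64.0 and 49.2 against 111 and 105 CPM at 24 h. The groups did not overlap at either time, with falls of 37.1% (adjusted p = 0.0019) and 49.1% (adjusted p = 0.00037, edgeR). FDFT1, at 199 and 230 CPM with BaP and 301 and 303 CPM with vehicle at 24 h, fell by 28.7% (adjusted p = 0.027, edgeR), the smallest fall among the 14.

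**Figure D4:**
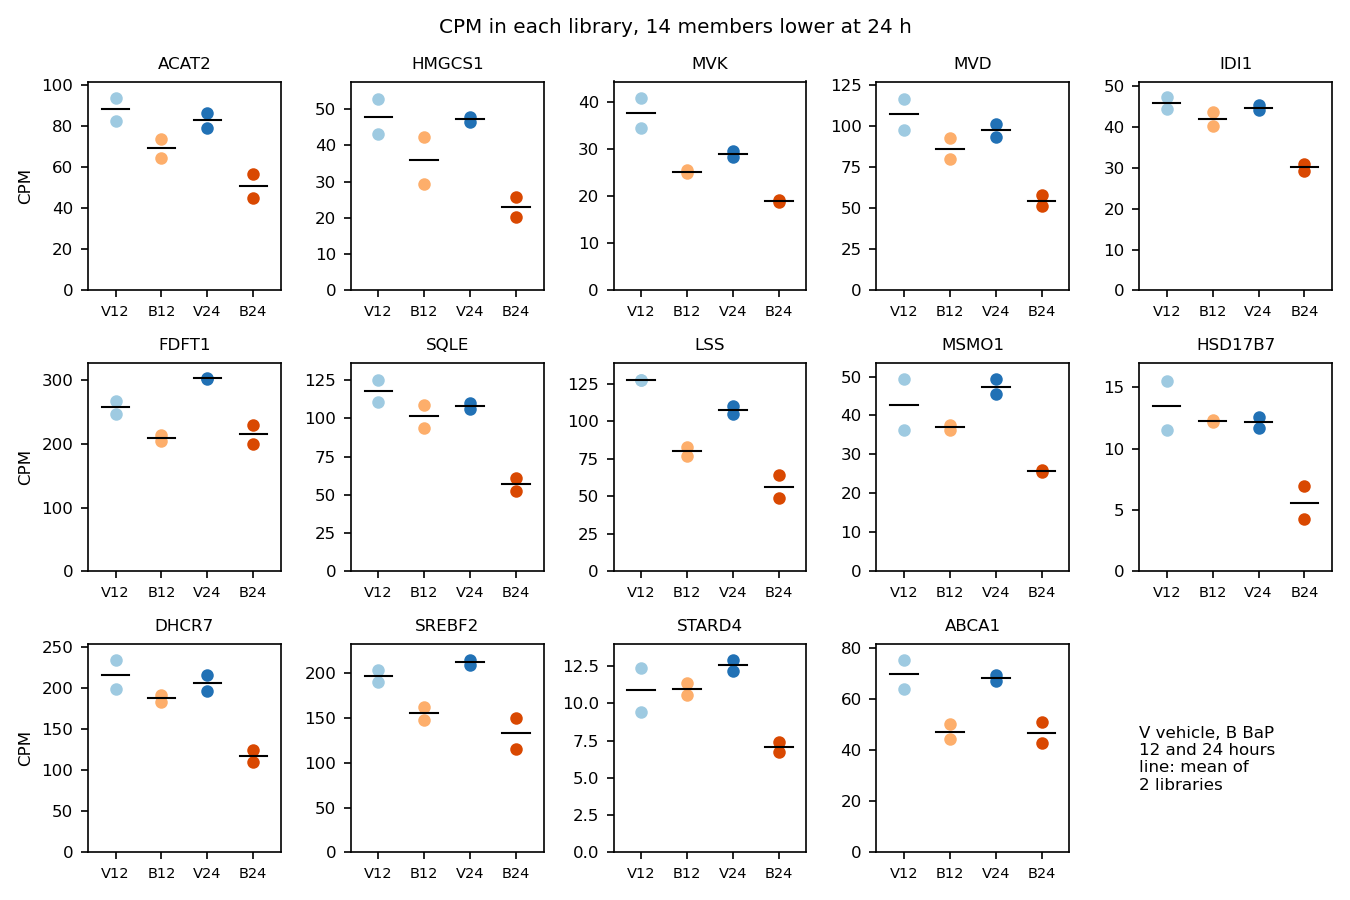
CPM in each library (points) and group mean (line) for the 14 members lower at 24 h, each axis starting at 0. In each panel both BaP 24 h points lie below both vehicle 24 h points, and LSS, MVK and ABCA1 are also lower with BaP at 12 h.

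Of the 9 genes from lanosterol to cholesterol, 3 fell at 24 h. At 12 h 0 passed by edgeR and 0 by DESeq2, and 1 had an unadjusted p under 0.05. DHCR7 (ENSG00000172893) was at 125 and 110 CPM with BaP and 216 and 197 CPM with vehicle at 24 h, and fell by 43.7% (log2 -0.83, SE 0.13, adjusted p = 0.00095, edgeR). MSMO1, which removes methyl groups from the sterol, was at 25.6 and 26.0 against 49.3 and 45.4 CPM and fell by 45.6% (adjusted p = 0.0038, edgeR). HSD17B7, the sterol ketoreductase, was at 4.27 and 6.95 against 11.7 and 12.6 CPM and fell by 48.1% (SE 0.23 on the log2 scale, adjusted p = 0.026, edgeR). Its shallow BaP 24 h library held only 11 counts, and its pseudogene copy HSD17B7P2 held 7 to 61 counts per library, so reads could be split between them.

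The other late enzymes did not pass at 24 h. CYP51A1, the lanosterol demethylase, was at 37.0 and 33.6 CPM with BaP against 52.2 and 42.5 CPM with vehicle (log2 -0.46, adjusted p = 0.088, edgeR). SC5D was at 13.9 and 17.6 against 23.8 and 24.4 CPM (log2 -0.55, adjusted p = 0.11). The sterol reductases LBR and TM7SF2, which act on the same double bond, differed by log2 -0.34 and -0.26. The isomerase EBP was at 51.4 and 58.3 CPM with BaP against 50.9 and 52.7 CPM with vehicle, a log2 difference of 0.11 (SE 0.12). The dehydrogenase NSDHL was at 30.4 and 33.9 against 38.0 and 29.1 CPM, a difference of -0.06 (SE 0.16). For EBP and NSDHL the BaP and vehicle libraries overlapped. 

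Among the regulators, SREBF2 itself (ENSG00000198911) fell at 24 h. It was at 150 and 116 CPM with BaP and 210 and 215 CPM with vehicle, a fall of 38.3% (log2 -0.70, SE 0.13, adjusted p = 0.0053, edgeR). This call did not hold in 5 of 18 alternatives, among them leaving out BaP 24 h replicate 2 or either vehicle 24 h library. Over the 18 the log2 difference ran from -0.88 to -0.51. At 12 h SREBF2 was at 148 and 162 against 203 and 190 CPM, without overlap, and the log2 difference of -0.34 had an adjusted p of 0.13. SCAP did not pass: it was at 154 and 162 CPM with BaP against 139 and 138 CPM with vehicle at 24 h (log2 0.19, adjusted p = 0.38), and at 138 and 151 against 170 and 152 CPM at 12 h (log2 -0.16). INSIG2, one of the proteins that retain SCAP, differed by log2 0.37 at 12 h (30.9 and 30.6 against 22.4 and 25.4 CPM, adjusted p = 0.29) and 0.28 at 24 h (44.1 and 72.0 against 46.5 and 54.2 CPM, adjusted p = 0.41, edgeR).

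The promoters of these genes show which letters the members share. RefSeq promoters (build GRCh38.p14, 250 bases before to 50 bases after the start) matched 26 of the 30 members, 6 of them with more than 1 start, and a gene was counted when any of its starts held a motif on either strand. The sterol regulatory element core TCACNCCAC, a site SREBP proteins are known to bind, was in 1 of the 26, SREBF2. It was in 1.39% of 27305 genes with a promoter and in 1.49% of those tested. Only this spelling of the element was searched, so other spellings would be missed. CCAAT, the box of the factor NF-Y that works beside SREBP, was in 19 of the 26, against 39.7% of all genes and 43.0% of the 10335 tested genes with a promoter. Among members with a matched promoter, CCAAT was in 10 of 11 that fell at 24 h and in 8 of 14 that did not pass. ACAT2, FDFT1 and SQLE also fell but had no matched promoter, so these counts leave them out. The SP1 box GGGCGG was in 23 of 26 members and 75.9% of tested genes. The E-box CACGTG was in 5 of 26 and 12.4%, and GCGTG, the core bound by the aryl hydrocarbon receptor, in 21 of 26 and 57.6%. GCGTG was in 9 of 11 members that fell and 11 of 14 that did not pass. These are matches of letters in a short window, not measured sites.

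SREBF2 is shown first, with the sterol regulatory element core in capitals, because it is the factor gene and the only member whose promoter held that core. LSS, DHCR7 and MVD, the CCAAT-holding members with the smallest p at 24 h among the rest, follow with CCAAT or its reverse ATTGG in capitals, and then NSDHL, a member that did not pass and has the most such boxes among those. This choice of 4 was made after the values were seen. All are written 5′ to 3′ in the direction of the gene. DHCR7 has 2 listed starts. The start with more CCAAT boxes is shown, and the other holds 0.

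SREBF2, chr22:41832855-41833154, plus strand: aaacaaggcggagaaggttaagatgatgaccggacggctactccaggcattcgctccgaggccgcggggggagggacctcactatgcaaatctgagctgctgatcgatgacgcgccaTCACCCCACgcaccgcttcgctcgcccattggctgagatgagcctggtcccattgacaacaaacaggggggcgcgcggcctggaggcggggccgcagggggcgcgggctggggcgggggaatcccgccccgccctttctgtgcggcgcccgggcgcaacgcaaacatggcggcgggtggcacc

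LSS, chr21:46228725-46229024, minus strand: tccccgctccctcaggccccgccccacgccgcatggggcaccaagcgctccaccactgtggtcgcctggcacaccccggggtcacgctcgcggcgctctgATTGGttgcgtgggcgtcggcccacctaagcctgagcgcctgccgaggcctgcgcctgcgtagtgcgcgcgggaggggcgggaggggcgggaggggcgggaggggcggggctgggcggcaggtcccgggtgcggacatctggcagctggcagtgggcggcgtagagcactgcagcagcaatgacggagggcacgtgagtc

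DHCR7, chr11:71448344-71448643, minus strand: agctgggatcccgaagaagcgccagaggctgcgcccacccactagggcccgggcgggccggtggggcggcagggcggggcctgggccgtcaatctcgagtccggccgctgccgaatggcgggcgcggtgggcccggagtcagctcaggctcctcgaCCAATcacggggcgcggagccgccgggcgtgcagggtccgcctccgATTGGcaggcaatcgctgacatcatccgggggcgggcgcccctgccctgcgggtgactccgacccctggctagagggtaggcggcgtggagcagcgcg

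MVD, chr16:88663042-88663341, minus strand: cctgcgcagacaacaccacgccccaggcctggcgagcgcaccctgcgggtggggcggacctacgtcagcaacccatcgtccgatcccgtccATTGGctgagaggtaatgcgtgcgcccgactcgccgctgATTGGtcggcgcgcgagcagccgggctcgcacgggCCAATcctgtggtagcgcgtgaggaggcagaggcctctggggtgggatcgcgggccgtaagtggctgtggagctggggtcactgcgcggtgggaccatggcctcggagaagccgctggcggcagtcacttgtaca

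NSDHL, chrX:152830813-152831112, plus strand: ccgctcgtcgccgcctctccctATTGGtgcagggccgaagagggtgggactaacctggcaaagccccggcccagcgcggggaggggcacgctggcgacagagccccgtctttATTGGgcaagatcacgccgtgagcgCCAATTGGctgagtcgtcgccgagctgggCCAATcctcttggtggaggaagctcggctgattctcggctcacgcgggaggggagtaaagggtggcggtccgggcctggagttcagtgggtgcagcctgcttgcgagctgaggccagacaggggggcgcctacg

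Counting from the start, the core of SREBF2 begins at base -133. The single box of LSS begins at -150, those of DHCR7 at -94 and -48, and those of MVD at -159, -120 and -85. NSDHL has 5 boxes, at -228, -138, -113, -110 and -84, a pair of which overlap, and its log2 difference at 24 h was -0.06. Among the members whose promoters are not shown, MVK also holds 5 boxes and MSMO1 holds 4, and both fell at 24 h.

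Of the 5 tested genes of sterol transport and efflux, 2 fell at 24 h. ABCA1, which exports cholesterol to apolipoprotein particles, was lower at both times, at 44.4 and 50.2 against 63.9 and 75.6 CPM at 12 h and at 51.0 and 42.8 against 67.4 and 69.6 CPM at 24 h. The log2 differences were -0.56 (adjusted p = 0.011) and -0.58 (adjusted p = 0.022, edgeR), without overlap at either time. At 147 kb ABCA1 has the longest genomic span of the 30 members and is the only one over 100 kb. STARD4, a cytosolic sterol carrier, was at 11.4 and 10.5 against 9.44 and 12.4 CPM at 12 h, with overlap, and fell by 42.4% at 24 h (6.75 and 7.43 against 12.9 and 12.2 CPM, adjusted p = 0.036, edgeR). The antisense gene STARD4-AS1 held 5 to 55 counts, and since strand is not stated, its reads cannot be told apart from those of STARD4 where they overlap.

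The remaining transport genes did not pass at either time. NPC1, which releases cholesterol from lysosomes, was at 98.0 and 92.8 CPM with BaP and 103 and 102 CPM with vehicle at 24 h (log2 -0.11, SE 0.12). NPC1L1, a sterol importer, differed by log2 0.22 at 12 h and -0.17 at 24 h, and its BaP 24 h libraries (71.7 and 47.6 CPM) lay on either side of the vehicle libraries (66.0 and 62.1 CPM). MYLIP, a ubiquitin ligase that lowers lipoprotein uptake, was at 2.14 to 4.13 CPM in all 8 libraries, where a standard error of 0.37 on the log2 scale at 24 h leaves a wide interval.

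The change of the BaP response between the times was tested directly. No member passed for the 24 h minus 12 h difference (0 of 28 by edgeR's quasi-likelihood test and 0 by DESeq2), where 0.0814% of all genes were lower and 0.461% higher, and 9 members had an unadjusted p under 0.05, 8 of them negative. The median difference was -0.33, against 0.01 over all genes. SQLE had the smallest p, with a difference of -0.73 (SE 0.18, adjusted p = 0.092, edgeR), followed by DHCR7 at -0.62 (adjusted p = 0.17). Without BaP 24 h replicate 1 the members' median difference was -0.401, against 0.023 over all genes. For MVK and ABCA1 the difference was near 0 (-0.05, SE 0.20, and -0.02, SE 0.19).

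Within each arm the time itself was also compared. In vehicle cells 1 member passed, INSIG2, which rose from 22.4 and 25.4 CPM at 12 h to 46.5 and 54.2 CPM at 24 h (2.10-fold, adjusted p = 0.0053, edgeR), where 2.27% of all genes rose and 1.01% fell. In BaP-exposed cells INSIG2 rose 1.98-fold (adjusted p = 0.0025, edgeR) and 14 members fell, where 10.1% of all genes rose and 7.34% fell. Among the 20 synthesis enzymes, 13 fell with time in BaP-exposed cells. In vehicle cells 0 passed by edgeR's quasi-likelihood test and 0 by DESeq2 (2 at an unadjusted p under 0.05), and their median log2 difference was -0.10 against -0.47 in BaP-exposed cells. One of the 13, NSDHL, differed as much in vehicle cells (log2 -0.50, adjusted p = 0.075) as under BaP (log2 -0.47, adjusted p = 0.043, edgeR), and edgeR's exact test called it lower in vehicle cells. SQLE fell by 44.9% and HSD17B7 by 48.9% with time under BaP. The INSIG2 rise in vehicle cells was not past the threshold without vehicle 12 h replicate 1 or without vehicle 24 h replicate 2. In BaP-exposed cells 15 members passed in all, and 3 without BaP 12 h replicate 2. These comparisons use the same libraries as those of BaP against vehicle. Markers moved with time as well. The leukocyte marker LYZ, the hepatocyte marker APOA2 and the fibroblast marker PDGFRB rose in both arms, and the leukocyte marker CD14 rose under BaP. PDGFRB went from 8.95 and 9.08 to 24.4 and 20.3 CPM under BaP and from 17.3 and 15.9 to 28.6 and 29.1 CPM with vehicle. Their part in the time comparisons was not tested.

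Genes next to the pathway were read from 6 further lists. Beside the counts in these lists stand the shares of all genes: 4.84% fell and 3.41% rose at 12 h, and 2.20% fell and 3.11% rose at 24 h. Of 18 tested genes of fatty acid synthesis and desaturation, whose control SREBF1 shares a family with SREBF2, 3 fell at 12 h and 4 at 24 h, with medians of -0.27 and -0.31. The 12 h call of FADS2 did not hold in 10 of 18 alternatives. SREBF1 was at 60.1 and 61.8 against 97.1 and 87.1 CPM at 12 h and at 51.0 and 45.2 against 76.1 and 80.1 CPM at 24 h, with log2 differences of -0.59 (adjusted p = 0.0031) and -0.72 (adjusted p = 0.0026, edgeR). FADS2, a desaturase, fell by 47.8% at 24 h, the stearoyl-CoA desaturase SCD by 47.7% and the fatty acid synthase FASN by 41.3%. The FASN call at 24 h did not hold in 5 of 18 alternatives, among them leaving out either vehicle 24 h library. Of 11 genes of SREBP cleavage and sterol-regulated degradation, which include both site proteases, 0 passed at 12 h (edgeR, with 2 at an unadjusted p under 0.05) and 1 at 24 h, UFD1, which was 1.54-fold higher (adjusted p = 0.011, edgeR), with medians of -0.10 and -0.03. The UFD1 call did not hold in 5 of 18 alternatives, among them leaving out BaP 24 h replicate 2 or either vehicle 24 h library.

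Of 9 genes of oxysterol receptors and plasma cholesterol exchange, the receptor partner RXRA fell at both times (log2 -0.60 and -0.46, adjusted p = 0.0035 and 0.044, edgeR). The 24 h call of RXRA did not hold in 11 of 18 alternatives, and a fit with a replicate block is among those 11. The phospholipid transfer protein PLTP was at 65.3 and 58 CPM with BaP against 25.5 and 27.2 CPM with vehicle at 24 h and was 2.32-fold higher (adjusted p = 9.7e-05, edgeR). Of 12 tested genes of cholesterol storage and transfer, LRP1 (log2 -0.65) and the cholesterol acyltransferase SOAT2 (log2 -0.87) fell at 12 h, and at 24 h 0 passed by edgeR, with 1 at an unadjusted p under 0.05. PDSS2 of the isoprenoid branches (9 tested) and AKR1D1 of bile acid synthesis (6 tested) fell at 12 h, by log2 -0.88 and -1.51, and neither list had a gene past the threshold at 24 h by edgeR (2 and 1 at an unadjusted p under 0.05). The 12 h calls of LRP1, SOAT2, PDSS2, AKR1D1, SREBF1 and RXRA were all lost without BaP 12 h replicate 1. Of 18 alternatives, LRP1 lost its call in 5, SOAT2 and AKR1D1 in 4, and PDSS2, SREBF1 and RXRA in 3. Leaving out BaP 12 h replicate 2 or vehicle 12 h replicate 2 also ended the call of LRP1, vehicle 12 h replicate 1 that of SOAT2, and vehicle 12 h replicate 2 that of AKR1D1.

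Transcript shares within a gene could be tested for 18 members. At 12 h 1 member passed, GGPS1 (adjusted p = 0.0074, edgeR's gene-level test), where 0.307% of 6831 genes passed. The transcript ENST00000451121 took 56.5% and 66.1% of GGPS1 in the vehicle 12 h libraries and 0% in the other 6, while ENST00000282841 took 0% in those libraries and 41.2% to 72.4% elsewhere. The summed level of GGPS1 did not pass. At an unadjusted p under 0.05 there were 2 members at 12 h, GGPS1 and MVK (adjusted p = 0.15 for MVK, edgeR's gene-level test). The MVK transcript ENST00000392727 took 0% of MVK in both BaP 12 h libraries and 17.5% and 15.3% in the vehicle 12 h libraries. With posterior mean counts in place of the maximum likelihood estimates 0 members passed, and 0 passed without either vehicle 12 h library or with a replicate block. At 24 h 0 members passed (0 also by the Simes test, and 1 at an unadjusted p under 0.05), where 0.922% of all genes passed.

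The count at 24 h moved with single libraries and with the depth. The BaP 24 h pair was the least alike of the 4 groups, with an SD of 0.323 for the log2 difference between its libraries over 7299 genes, against 0.169 to 0.245 in the other groups. As reported, 782 of all genes (5.30%) passed at 24 h. Without the shallow BaP 24 h replicate 1 the member count was 17, of which INSIG2 was higher, while 1956 of all genes (12.8%) passed. It was 8 without BaP 24 h replicate 2 (1.80% of all genes), 7 without vehicle 24 h replicate 2 (1.53%) and 4 without vehicle 24 h replicate 1 (DHCR7, LSS, MVD and SQLE, with 169 of all genes). With limma on log2(TPM + 1) it was 1, the low-count gene HSD17B7. With all libraries thinned to 2592234 counts it was 2, DHCR7 and SQLE. The share of all genes past the threshold was 0.658% with limma and 0.391% after thinning. Over 18 alternatives, the 14 members gave 252 log2 differences, and all 252 were negative, with 191 past the threshold. These 14 were picked by their fall in the same libraries that the alternatives refit. Their kept sign is therefore not separate evidence of a fall. The TPM of the BaP 24 h libraries differed more than their CPM for some members: HMGCS1 was at 17.5 and 7.76 TPM there, against 25.9 and 20.3 CPM.

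**Figure D5:**
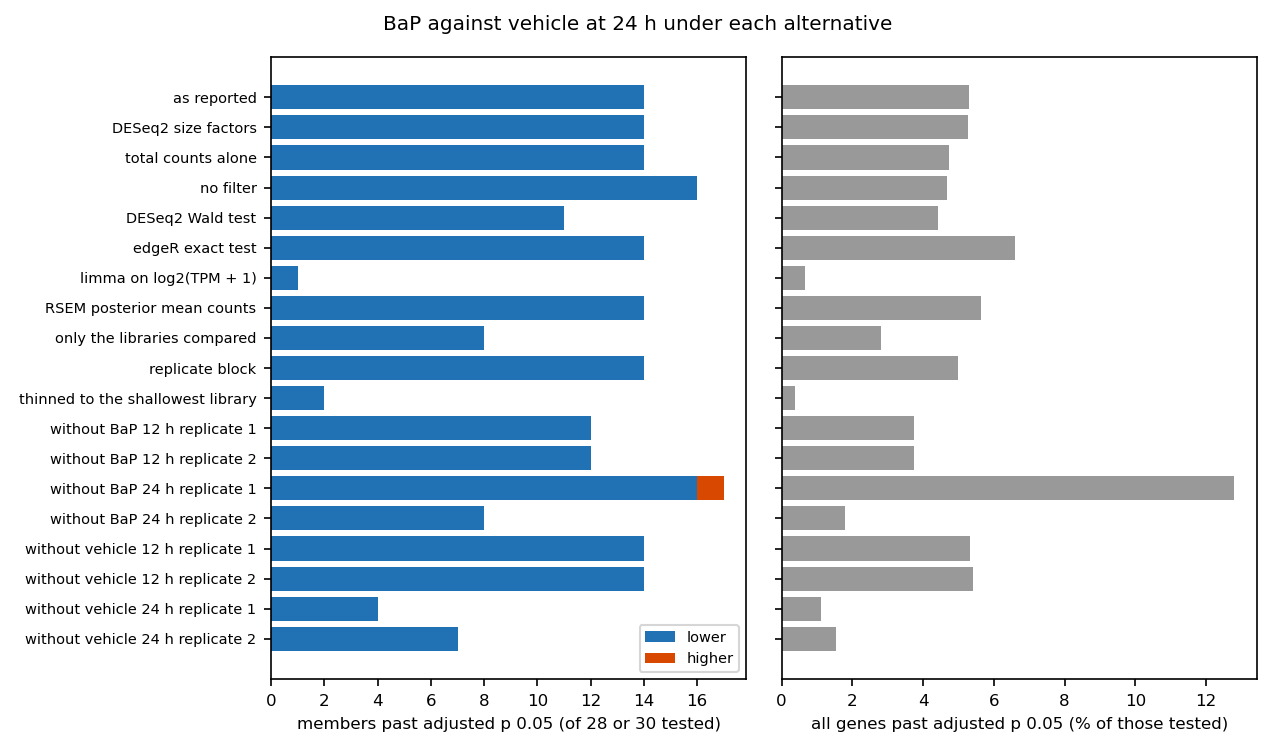
Members past an adjusted p of 0.05 for BaP against vehicle at 24 h (left, lower and higher) and the share of all genes past it (right) as reported and under each of 18 alternatives. The count runs from 1 (limma on TPM) to 17 (without BaP 24 h replicate 1) and the only member called higher, INSIG2, is in the latter.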

How the data were processed

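Poly-A RNA of 8 HepG2 libraries was sequenced. Per the submitters' processing notes the authors used Bowtie 0.12.7, RSEM 1.1.7 and edgeR. The deposited tables hold, per gene and transcript of Ensembl release 58 as the deposited files are named, RSEM's estimated counts and the fraction of transcripts, and no source used here names the genome build or the read strand.

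Groups came from the sample titles. Estimated counts were rounded and tested with edgeR 4.0.16 in R 4.3.3: TMM, filterByExpr (minimum count 10, minimum total 15), a robust quasi-likelihood fit over all 8 libraries with 1 mean per group, two-sided, Benjamini-Hochberg over 14746 genes, threshold 0.05. CPM used TMM-scaled library sizes, and TPM is the deposited fraction times 1000000. Transcript usage was tested with edgeR's diffSpliceDGE on transcripts of at least 10% of a gene. Alternatives used limma 3.58.1 (pseudocount 1) and DESeq2 1.42.0. Totals ranged from 2592272 to 16533490 counts, and 3 counts correspond to 0.1814 to 1.157 unscaled CPM.

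Members and lists were chosen with earlier results of these data known. All members are named. From each further list up to 4 genes were named, those with the smallest p among genes past the threshold for BaP. Of 131 listed genes 128 matched an ID. Promoters were to be printed for up to 6 members off chromosome 8 that hold the sterol element, which 1 does. The replicate numbers do not state a pairing, and its check is given under the dependence on processing.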

Additional observations from a re-analysis of the deposited data

Results flagged for a closer look

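PLTP, the phospholipid transfer protein, responded to BaP differently at the 2 times by a test of the difference itself. It was at 32.0 and 32.7 CPM with BaP against 28.3 and 24.5 CPM with vehicle at 12 h, and at 65.3 and 58 against 25.5 and 27.2 CPM at 24 h. The 24 h minus 12 h difference of the log2 fold changes was 0.92 (SE 0.19, adjusted p = 0.035, edgeR), and it was positive in all 16 alternatives (0.61 to 1.04), of which 7 were past the threshold (adjusted p from 0.0041 to 0.97). No cholesterol gene among the 28 tested passed this test. Groups of 2 libraries are too small for a test of single libraries standing apart.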

How the results depend on the processing

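Direction was kept by each of the 14 members lower at 24 h in all 18 alternatives. The 14 were picked by that fall in the same libraries, so a kept direction is not separate evidence. Of 252 values, 61 were not past the threshold. STARD4 was not past it in 9 alternatives, MVK and FDFT1 in 7, IDI1 and ABCA1 in 6, SREBF2 and HSD17B7 in 5. HMGCS1 was not past it in 4, ACAT2 and MSMO1 in 3, LSS and MVD in 2, SQLE and DHCR7 in 1. The exact test and the fit of only the compared libraries were not run for the 24 h minus 12 h difference. The alternatives for genes outside the 30 were chosen after seeing the data. Signs of members uncalled in both fits were not compared.

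The member counts moved as follows, and where no construction such as fewer samples or counts shows it, the cause was not tested. At 12 h (3 as reported) the count was 0 with limma on TPM, 0 after thinning and 5 with only the compared libraries, and 0 to 5 when 1 library was left out. At 24 h (14) it was 1, 2 and 8 in the same order, and 4 to 17 when 1 library was left out. For the 24 h minus 12 h difference (0) it was 1 without the count filter and 0 to 3 when 1 library was left out. For vehicle over time (1) it was 2 without the filter, 2 by edgeR's exact test, 0 with limma, 0 after thinning and 2 with only the compared libraries, and 0 to 2 when 1 library was left out (0 without vehicle 12 h replicate 1 and without vehicle 24 h replicate 2). For BaP over time (15) it was 5 with limma and 3 after thinning, and 3 to 16 when 1 library was left out (7 without BaP 12 h replicate 1, 3 without BaP 12 h replicate 2, 5 without BaP 24 h replicate 2), and DESeq2 gave 10. At 12 h the count of 0 came without BaP 12 h replicate 1. Where a left-out library leaves 1 in its group, that library is assumed to vary like the other groups.

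Transcript usage at 12 h (1) was 0 with posterior mean counts, 0 with a replicate block and 0 to 2 when 1 library was left out (0 without either vehicle 12 h library), and at 24 h (0) it was 0 to 3. Total-count scaling moved the median of all genes to -0.12 for BaP over time, where the members' median was -0.59.

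The labels speak of independent experiments without saying that equal numbers share one. Over 7299 genes the deviations of equally numbered libraries correlated at 0.42 between the 12 h arms and 0.06 between the 24 h arms. Between the other groups the correlations were -0.24 to 0.02. The main fit did not take the numbers as pairs, and whether the 12 h arms shared experiments was not tested. With the replicate block, members called were 3 at 12 h, 14 at 24 h and 0 for the difference. For vehicle over time the count was 1 and for BaP over time 14. The block uses the same term at both times, so it cannot test a pairing at 12 h alone.

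Depth limits PMVK, HSD17B7, STARD4 and MYLIP most, with 10 to 18 counts in their shallowest library.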
